A study of Mus musculus with 21 samples.

Results

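The genes described are 35 type I interferon-stimulated antiviral genes of the mouse, followed as length-normalised transcript levels (TPM) through 21 RNA sequencing libraries. They were selected by symbol, 35 of the 35550 genes in the cell line values, and each of the 35 has a row there. The liver values list 33 of them, and Mx1 and Mx2 have no row.

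RAW264.7 is a mouse line with macrophage properties. In the 24 h experiment WT cells received 1 µg/mL LPS together with CTM at 0.5 mM, LPS at the same dose, or PBS. In the 12 h experiment Vim-KO RAW264.7 cells, which lack vimentin, received 1 µg/mL LPS or PBS, and so did WT cells. Each cell line group has 2 libraries, and each liver group has 1. Livers came from C57BL/6J mice injected intraperitoneally: TG2-KO mice with 30 mg/kg LPS or PBS, WT mice with 30 mg/kg LPS plus 100 mg/kg CTM, 30 mg/kg LPS, or PBS, and a WT pair given LPS with or without depletion of liver macrophages, for which no dose is stated. LPS is lipopolysaccharide of bacterial outer membranes, TG2 is transglutaminase 2 (gene Tgm2), and CTM is named only as the labels name it. The labels do not give the age of the mice, the time between injection and liver sampling, the means of depletion, whether the Vim-KO line is 1 clone, or whether paired libraries stand for independent cultures. A p-value here therefore reflects the scatter of these libraries, which may be technical.

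Type I interferons (IFN-β and the IFN-α family) bind the receptor pair IFNAR1 and IFNAR2, and the kinases JAK1 and TYK2 then activate the transcription factor complex ISGF3, to which STAT2 and IRF9 belong. ISGF3 binds the interferon-stimulated response element (ISRE) of its target genes. In macrophages LPS reaches this route through TLR4, the adaptor TRIF and the factor IRF3, which switch on Ifnb1, and low constitutive interferon signalling is known to keep many of the targets transcribed at rest.

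The region before the annotated start was available for 26 of the 35 genes in RefSeq (GRCm38.p6). An ISRE core, searched on both strands as 2 copies of GAAA with any 2 bases between them from 250 bases before to 50 bases after the start, occurred in 13 of the 26, against 3.99% of the 27025 genes with such a window. A GAS element (TTCNNNGAA, both strands), the element named for interferon gamma activation, occurred in 7 of the 26, against 9.55% of genes. The NF-κB motif occurred in 2 of the 26, Oasl1 and Bst2, against 5.14% of genes. A match is a description of the letters and was not tested as a binding site, and a window without one says nothing about the factor. The 250 bases before the start are shown for 7 of the 13 genes with an ISRE core, with cores in capitals (on the opposite strand the core reads as 2 copies of TTTC). Isg20, Ifit2, Oasl1, Oasl2, Xaf1 and Cmpk2, also named in the results below, held no core in their windows. Isg15 lies at chr4:156200819-156201068 (minus strand), Ifit1 at chr19:34640639-34640888 (plus), Ifit3 at chr19:34583279-34583528 (plus), Ifit3b at chr19:34607707-34607956 (plus), Rsad2 at chr12:26456453-26456702 (minus), Oas1a at chr5:120907526-120907775 (minus) and Bst2 at chr8:71537473-71537722 (minus).
Isg15: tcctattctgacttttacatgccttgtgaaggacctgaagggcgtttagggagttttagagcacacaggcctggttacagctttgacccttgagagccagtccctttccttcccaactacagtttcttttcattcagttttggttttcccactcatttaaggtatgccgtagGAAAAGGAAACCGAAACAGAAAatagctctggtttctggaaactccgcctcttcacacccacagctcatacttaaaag
Ifit1: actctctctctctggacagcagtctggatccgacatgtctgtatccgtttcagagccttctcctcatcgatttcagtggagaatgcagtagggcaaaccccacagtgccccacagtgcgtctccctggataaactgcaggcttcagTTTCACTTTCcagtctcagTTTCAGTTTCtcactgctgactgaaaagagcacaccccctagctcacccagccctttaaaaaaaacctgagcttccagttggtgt
Ifit3: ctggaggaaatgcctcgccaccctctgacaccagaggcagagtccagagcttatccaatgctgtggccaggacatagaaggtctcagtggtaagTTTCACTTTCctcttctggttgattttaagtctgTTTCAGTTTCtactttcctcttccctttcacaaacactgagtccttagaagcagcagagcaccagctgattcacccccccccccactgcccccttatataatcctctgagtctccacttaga
Ifit3b: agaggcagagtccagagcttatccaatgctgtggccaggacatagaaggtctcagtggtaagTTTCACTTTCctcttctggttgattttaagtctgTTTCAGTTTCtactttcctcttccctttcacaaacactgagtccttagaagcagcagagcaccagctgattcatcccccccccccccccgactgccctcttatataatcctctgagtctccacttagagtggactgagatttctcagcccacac
Rsad2: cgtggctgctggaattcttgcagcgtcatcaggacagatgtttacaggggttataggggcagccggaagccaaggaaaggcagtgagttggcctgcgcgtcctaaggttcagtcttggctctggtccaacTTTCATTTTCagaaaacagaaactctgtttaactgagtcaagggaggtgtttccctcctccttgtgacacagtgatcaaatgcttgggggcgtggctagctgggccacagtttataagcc
Oas1a: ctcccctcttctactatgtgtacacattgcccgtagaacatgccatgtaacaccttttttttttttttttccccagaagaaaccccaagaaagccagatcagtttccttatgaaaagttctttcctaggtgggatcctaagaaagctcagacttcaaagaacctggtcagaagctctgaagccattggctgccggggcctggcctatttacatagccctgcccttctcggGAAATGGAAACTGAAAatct
Bst2: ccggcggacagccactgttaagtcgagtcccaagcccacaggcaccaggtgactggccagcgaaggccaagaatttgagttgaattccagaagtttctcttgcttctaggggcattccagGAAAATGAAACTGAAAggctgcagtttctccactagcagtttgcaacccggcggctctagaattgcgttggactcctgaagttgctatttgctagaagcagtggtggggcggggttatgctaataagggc

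Isg15 holds 3 overlapping cores that begin 78, 72 and 66 bases before the start. Ifit1 (104 and 85 bases), Ifit3 (156 and 122 bases) and Ifit3b (188 and 154 bases) hold a pair in the same letters, TTTCACTTTC and TTTCAGTTTC. Aligned without gaps, the windows of Ifit3 and Ifit3b match at 201 of 268 bases, a count lowered by their C runs of unequal length. Oas1a has overlapping cores at 20 and 14 bases, Bst2 overlapping cores at 130 and 124 bases, and Rsad2 a single core at 120 bases. Several of the genes lie close together: the 4 Ifit genes on chromosome 19, Oas1a, Oas1g, Oas2 and Oas3 on chromosome 5, Oasl1 beside Oasl2 elsewhere on that chromosome, Parp14, Dtx3l and Parp9 on chromosome 16, Mx1 beside Mx2 elsewhere on that chromosome, and Rsad2 beside Cmpk2 on chromosome 12. Close copies share sequence, so how reads were divided between them is uncertain: of the 31-base words in Ifit3 transcripts 61.8% also occur in Ifit3b, and of those in Oas1a 68.7% occur in Oas1g. Mx1 and Mx2, GTPases that block incoming viruses, share 7.22% of the words of Mx1 and are annotated as transcribed pseudogenes in the RefSeq table of C57BL/6J.

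Vim in LPS libraries stood at 30.8 and 33.0 TPM in Vim-KO cells, against 1375 and 1461 TPM in WT cells, and in PBS libraries at 17.0 and 18.7 TPM against 1930.1 and 1877 TPM. Liver Tgm2 with LPS was 15.5 TPM in TG2-KO mice, against 425 TPM in WT mice, and with PBS 0.740 TPM against 35.7 TPM. The 8 macrophage markers summed to between 8094 and 16672 TPM in every cell line library, while Clec4f, Vsig4, Timd4, Cd3e, Ncr1, Nkg7 and Retnlg were listed at 0 in all of them. Levels are given in TPM, and changes are differences of log2(TPM + 1) from limma, adjusted over 11030 genes at 24 h and 11115 at 12 h and called at an adjusted p under 0.05. That pseudocount understates the change of genes near 0. All 35 genes passed the filter of a mean of 1 TPM over the libraries of each experiment. Rescaling the libraries by median ratios moved the median change of all genes by 0.24 for LPS at 24 h, 0.16 for LPS plus CTM against PBS, 0.36 for LPS in WT cells at 12 h, 0.25 for LPS in Vim-KO cells and -0.11 for the difference between the lines in the LPS change. With it the share of calls that were higher, over all genes, became 50.4% against 31.6% as listed for LPS at 24 h, 52.3% against 32.9% for LPS plus CTM against PBS, 50.5% against 25.2% and 50.4% against 31% for LPS in WT and Vim-KO cells at 12 h, and 47.6% against 66.2% for the difference in change, while 33, 33, 33, 35 and 35 of the 35 genes were called higher.

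At rest the Vim-KO line held less of all 35 transcripts than the WT line. With PBS at 12 h the level in Vim-KO cells was between 3.71% (Mx1) and 60.7% (Bst2) of the WT level, with a median of 24.6%. All 35 fell past the threshold, against 25.4% of all genes tested, with a median change of -1.81 against -0.05 over all genes. Both Vim-KO PBS libraries lay below the other 6 libraries of the experiment for each of the 35 genes, an order found in 14% of genes tested. The 35 genes summed to 770 and 745 TPM in Vim-KO PBS libraries, against 1921 and 1941 TPM in WT PBS libraries. In such bulk RNA fewer expressing cells and less RNA per cell cannot be told apart.

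Rtp4, a chaperone of membrane receptors that interferon induces, had the largest resting difference. It stood at 5.22 and 4.66 TPM in Vim-KO cells, against 60.7 and 66.9 TPM in WT cells, a change of -3.45 ± 0.0769 SE (adjusted p = 1.47e-07). Oasl2, an OAS-like protein with ubiquitin-like domains, was under 1 TPM in both Vim-KO libraries, at 0.324 and 0.957 TPM, against 15.1 and 15.6 TPM in WT cells (-3.35 ± 0.167 SE, adjusted p = 3.96e-06). Oas2, one of the synthases whose 2-5A product activates RNase L, fell to 8.86 and 7.16 TPM in Vim-KO cells, against 62.6 and 65.2 TPM in WT cells (-2.85 ± 0.103 SE, adjusted p = 9.64e-07). Genes given in full were chosen without overlap between the groups, so the separation of their libraries follows from the choice. Mx1 held 0.331 and 0.167 TPM in Vim-KO cells, against 6.25 and 7.16 TPM in WT cells (-2.63 ± 0.144 SE, adjusted p = 6.42e-06). Xaf1, a pro-apoptotic partner of XIAP, held 9.52 and 8.38 TPM in Vim-KO cells, against 47.0 and 59.3 TPM in WT cells (-2.44 ± 0.116 SE, adjusted p = 2.97e-06).

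The resting deficit ran through every role. The 6 sensors of foreign nucleic acid fell by between 0.97 (Eif2ak2, the kinase PKR) and 2.43 (Ifih1, the RNA sensor MDA5) on the log2 scale. The 6 OAS genes fell by between 1.27 and 3.35, the 4 Ifit genes, whose products bind foreign RNA ends, by between 0.98 and 2.24, and the ISG15 system by between 0.70 (Herc6, its ligase in the mouse) and 2.26 (Isg15, the ubiquitin-like modifier itself). Among 4 genes of ADP-ribosylation (Parp9, its partner Dtx3l, Parp12 and Parp14) the change was -1.13 to -2.04. The smallest differences were those of Herc6 (-0.70) and Bst2 (-0.72), tetherin, which holds budding virions at the cell surface.

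By resting level in WT cells the order was headed by Bst2, at 323 ± 2.19 TPM in Vim-KO cells and 532 ± 2.23 TPM in WT cells (SD, n = 2 each, here and in the rest of the order). Samhd1, an enzyme that depletes nucleotides, came next with 89.8 ± 6.34 TPM in Vim-KO cells and 215 ± 7.51 TPM in WT cells, then Oas1a with 42.0 ± 1.01 TPM in Vim-KO cells and 103 ± 9.69 TPM in WT cells. Ifi44 held 25.4 ± 1.5 TPM in Vim-KO cells and 91.8 ± 7.08 TPM in WT cells, and Oas3 held 20.5 ± 0.601 TPM in Vim-KO cells and 90.9 ± 0.406 TPM in WT cells. In WT cells Ifi44 and Oas3 did not differ beyond their spread, while Bst2 and Samhd1 lay well above the rest. At the low end Ifit3 held 0.689 ± 0.424 TPM in Vim-KO cells and 6.86 ± 0.180 TPM in WT cells, and Mx1 held 0.249 ± 0.116 TPM in Vim-KO cells and 6.71 ± 0.640 TPM in WT cells, with overlapping WT libraries. Ddx60, a helicase that aids RNA sensing, held 0.295 ± 0.0571 TPM in Vim-KO cells and 4.06 ± 0.356 TPM in WT cells. Rsad2 held 0.676 ± 0.00224 TPM in Vim-KO cells and 2.75 ± 0.176 TPM in WT cells, and Ifit3b, the lowest, 0.102 ± 0.0760 TPM in Vim-KO cells and 1.53 ± 0.368 TPM in WT cells. Under 1 TPM lay 7 of the 35 genes in each Vim-KO PBS library and none in WT PBS libraries.

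**Figure D1:**
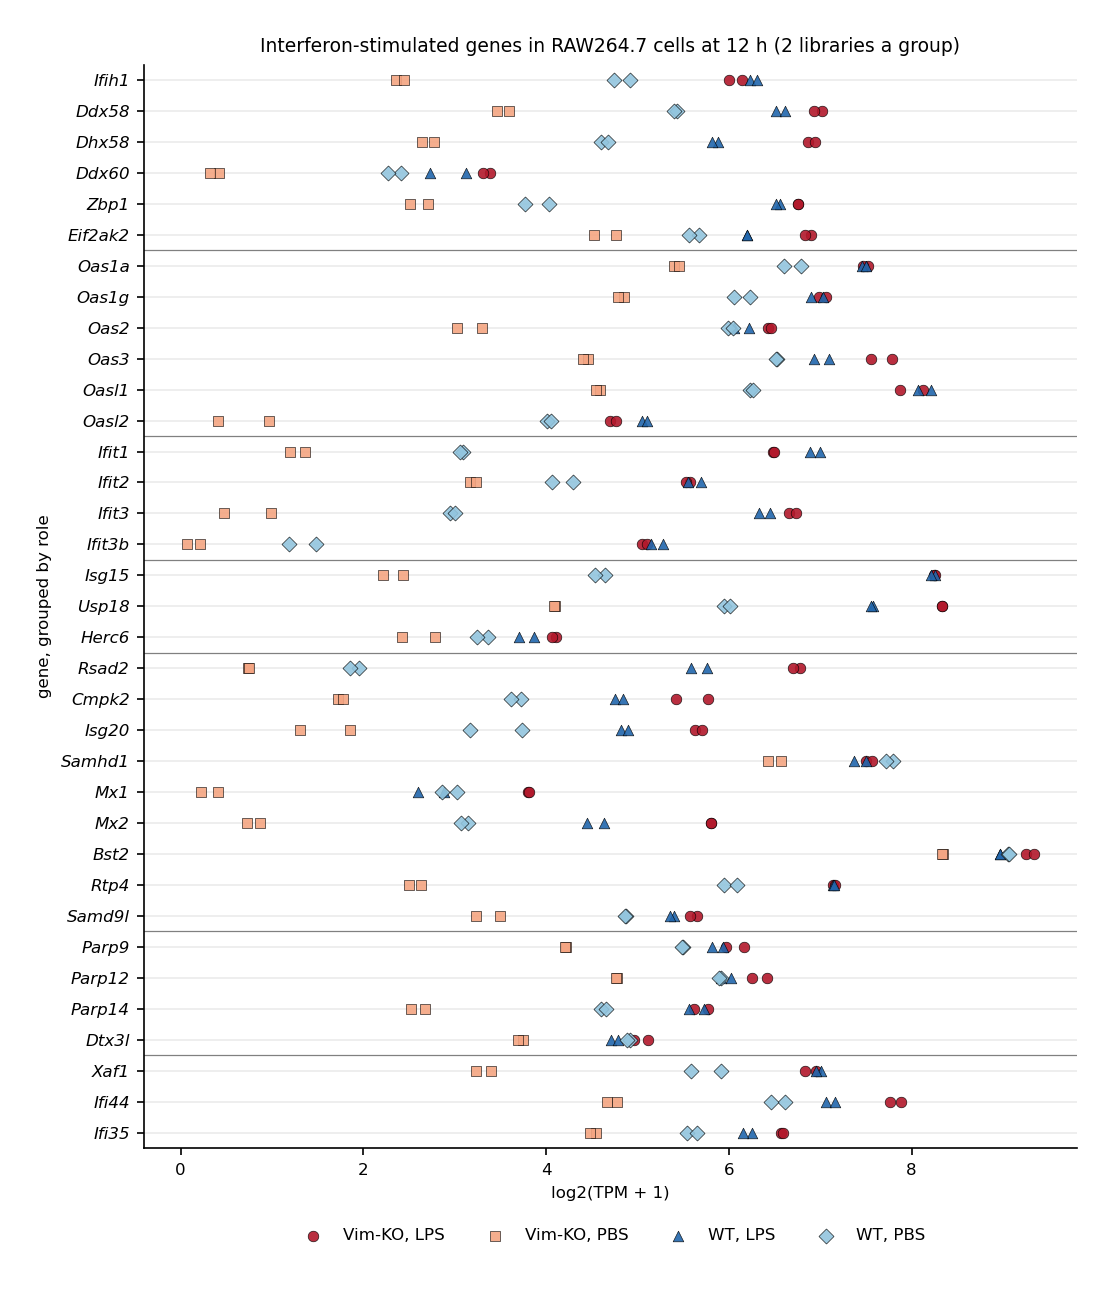
Level of each of the 35 genes in the 8 libraries of the 12 h experiment, as log2(TPM + 1) on the horizontal axis, with genes grouped by role on the vertical axis and 1 point per library (circles Vim-KO LPS, squares Vim-KO PBS, triangles WT LPS, diamonds WT PBS). The squares lie left of every other symbol in all 35 rows, and the circles and triangles lie close together in most.

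The upstream genes of the pathway were also lower in resting Vim-KO cells. The receptor genes Ifnar1 and Ifnar2, the kinase genes Jak1 and Tyk2, and Stat2 and Irf9 of ISGF3 all fell. Irf9 stood at 12.8 and 11.9 TPM in Vim-KO cells, against 41.0 and 41.2 TPM in WT cells (-1.66 ± 0.0858 SE), Stat2 at 12.8 and 11.1 TPM against 26.2 and 29.1 TPM (-1.15 ± 0.0932 SE), and Ifnar1 at 21.5 and 20.6 TPM against 33.0 and 34.3 TPM (-0.65 ± 0.108 SE). Irf7, the interferon-inducible factor that amplifies interferon production, fell to 207 and 203 TPM in Vim-KO cells, against 693 and 674 TPM in WT cells (-1.73 ± 0.0672 SE), whereas Irf3 was higher in Vim-KO cells (0.37 ± 0.0794 SE). Of the 5 regulatory factors 3 fell, 1 rose and 1 did not pass. Of 13 tested genes of the TLR4 and nucleic acid sensing routes 9 fell and 1 rose, with Tlr4 at 14.2 and 12.8 TPM in Vim-KO cells, against 42.2 and 40.1 TPM in WT cells. In the list of interferon ligands Ifnb1 alone passed the filter, and it was at 0 and 0 TPM in Vim-KO PBS libraries and 0.273 and 0 TPM in WT PBS libraries. Guanylate-binding proteins and related GTPases, better known as targets of interferon gamma, fell in 8 of 9 tested. Macrophage markers moved with genotype as well: their sum was 8220 and 8094 TPM in Vim-KO PBS libraries, against 16672 and 16576 TPM in WT PBS libraries, most of it Lyz2, and Adgre1 was 28.7 and 24.7 TPM against 91.3 and 89.3 TPM. Their part in the resting difference was not tested.

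LPS for 12 h raised all 35 genes in Vim-KO cells, against 20.5% of all genes tested, with a median change of 3.43 (-0.23 over all genes). The range ran from 0.96 (Bst2) to 5.99 (Rsad2), and 34 of the 35 changed by at least 1. The sum over the genes was 4328 and 4225 TPM with LPS, against 770 and 745 TPM with PBS. Rsad2, the radical-SAM enzyme viperin, stood at 109 and 103 TPM with LPS, against 0.674 and 0.677 TPM with PBS (5.99 ± 0.0983 SE, adjusted p = 5.97e-09). Ifit3 stood at 100.2 and 106 TPM with LPS, against 0.389 and 0.989 TPM with PBS (5.97 ± 0.156 SE, adjusted p = 5.06e-08). Isg15 rose to 302 and 304 TPM with LPS, against 3.65 and 4.39 TPM with PBS (5.93 ± 0.0851 SE, adjusted p = 3.46e-09). These 3 genes were scarce with PBS in this line, and lack of overlap with LPS libraries was a condition of their choice. Ifit1 held 88.3 and 89.2 TPM with LPS, against 1.30 and 1.58 TPM with PBS (5.20 ± 0.0880 SE, adjusted p = 6.18e-09), and Mx2 held 54.9 and 54.8 TPM with LPS, against 0.826 and 0.659 TPM with PBS (5.0 ± 0.105 SE, adjusted p = 2.16e-08).

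In WT cells LPS for 12 h raised 29 of the 35 genes, against 17.8% of all genes tested, and lowered 1, against 53.1%. The median change was 1.04, and -0.35 over all genes. Bst2, Dtx3l, Mx1, Oas2 and Parp12 did not pass. Ifit3b, Ifit1, Rsad2, Isg15 and Ifit3 moved most. Ifit3b stood at 34.4 and 37.8 TPM with LPS, against 1.79 and 1.27 TPM with PBS (3.88 ± 0.133 SE, adjusted p = 1.67e-07), and Ifit1 at 118 and 127 TPM with LPS, against 7.55 and 7.34 TPM with PBS (3.87 ± 0.0880 SE, adjusted p = 3.23e-08). Rsad2 held 46.9 and 53.2 TPM with LPS, against 2.87 and 2.62 TPM with PBS (3.77 ± 0.0983 SE, adjusted p = 5.26e-08). Isg15 held 304 and 297 TPM with LPS, against 24.0 and 22.1 TPM with PBS (3.65 ± 0.0851 SE, adjusted p = 3.51e-08), and Ifit3 79.7 and 86.3 TPM against 6.74 and 6.99 TPM (3.42 ± 0.156 SE, adjusted p = 6.82e-07). Absence of overlap was a condition for choosing these 5, so it is no further support. Samhd1 was the exception in direction, at 164 and 179.9 TPM with LPS, against 221 and 210.0 TPM with PBS (-0.32 ± 0.0750 SE, adjusted p = 0.00513), and that call is lost and its sign turned under median-ratio scaling (0.05, adjusted p = 0.553).

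The roles differed in size of the WT response. The 4 Ifit genes rose by 1.44 to 3.88 and the 6 sensors by 0.58 to 2.64 on the log2 scale, with Zbp1, a sensor of Z-form nucleic acid, the highest sensor. In the OAS family 5 of 6 rose, by 0.49 (Oas3) to 1.89 (Oasl1). Of the 4 ADP-ribosylation genes 2 rose, Parp9 by 0.38 and Parp14 by 1.01. The abundant Bst2 stood at 499 and 499 TPM with LPS, against 530.5 and 534 TPM with PBS (-0.09, adjusted p = 0.159). The neutrophil marker S100a8 stood at 13.1 and 12.9 TPM in Vim-KO and 908 and 892 TPM in WT LPS libraries, while S100a9, Ly6g and Retnlg did not exceed 2.77 TPM.

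With LPS the lines differed less than at rest. The level in Vim-KO cells was between 72.7% (Ifit1) and 246% (Mx2) of that in WT cells, with a median of 124%, and it was below 100% for 7 of the 35. Of the 35 genes 16 were higher in Vim-KO cells, against 24.1% of all genes tested, 1 was lower, against 20.6%, and 18 did not pass, with a median change of 0.30 (0.04 over all genes). The 16 were Bst2, Cmpk2, Ddx58, Dhx58, Dtx3l, Eif2ak2, Ifi35, Ifi44, Isg20, Mx1, Mx2, Oas2, Oas3, Parp12, Rsad2 and Usp18. Like all 35 genes, they had been lower at rest. Mx2 stood at 54.9 and 54.8 TPM in Vim-KO cells, against 23.8 and 20.8 TPM in WT cells (1.26 ± 0.105 SE, adjusted p = 5.81e-05). Rsad2 stood at 109 and 103 TPM in Vim-KO cells, against 46.9 and 53.2 TPM in WT cells (1.07 ± 0.0983 SE, adjusted p = 9.83e-05). Mx1 held 13.0 and 13.1 TPM against 6.37 and 5.08 TPM (1.07 ± 0.144 SE, adjusted p = 7.11e-04). Dhx58, the RIG-I-like receptor LGP2, was higher as well, at 116 and 122 TPM in Vim-KO cells, against 57.8 and 55.5 TPM in WT cells (1.06 ± 0.0790 SE, adjusted p = 3.51e-05). Isg20, an RNA exonuclease, held 48.5 and 51.4 TPM against 27.3 and 28.9 TPM (0.81 ± 0.218 SE, adjusted p = 0.0186), a call that does not hold without either WT LPS library or without Vim-KO LPS library 2 (adjusted p = 0.0615 to 0.0825). The calls of Oas2 and Dtx3l were likewise lost in 3 of the 4 fits without 1 library. Ifit1 went the other way, at 88.3 and 89.2 TPM in Vim-KO cells, against 118 and 127 TPM in WT cells (-0.46 ± 0.0880 SE, adjusted p = 0.0042).

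Several genes with large resting differences did not differ detectably between the lines with LPS. Isg15 held 302 and 304 TPM in Vim-KO cells with LPS, against 304 and 297 TPM in WT cells with LPS, a difference of 0.01 with a 95% interval of -0.18 to 0.21. Rtp4 held 139.6 and 142 TPM in Vim-KO cells, against 140.4 and 141 TPM in WT cells (0.00, 95% interval -0.18 to 0.18). Oasl2 was at 24.9 and 26.2 TPM against 32.1 and 33.5 TPM (-0.35, adjusted p = 0.129). Ifnb1 held 2.40 and 5.09 TPM in Vim-KO LPS libraries, against 1.65 and 2.10 TPM in WT LPS libraries (adjusted p = 0.0905), while the other interferon ligands stayed at or below 0.15 TPM in all cell line libraries. Ifnar1, Ifnar2, Jak1 and Tyk2 were lower in Vim-KO than in WT LPS libraries, and Stat2 and Irf9 did not pass. Irf7 was 503 and 457 TPM against 536 and 579 TPM (-0.22 ± 0.0672 SE). Of the 9 tested GTPases 5 were lower in Vim-KO cells and 4 did not pass. Socs3, a feedback inhibitor of cytokine receptors, was lower in Vim-KO cells with LPS (-1.36 ± 0.124 SE), and so were 5 of the 7 feedback inhibitors in all.

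**Figure D2:**
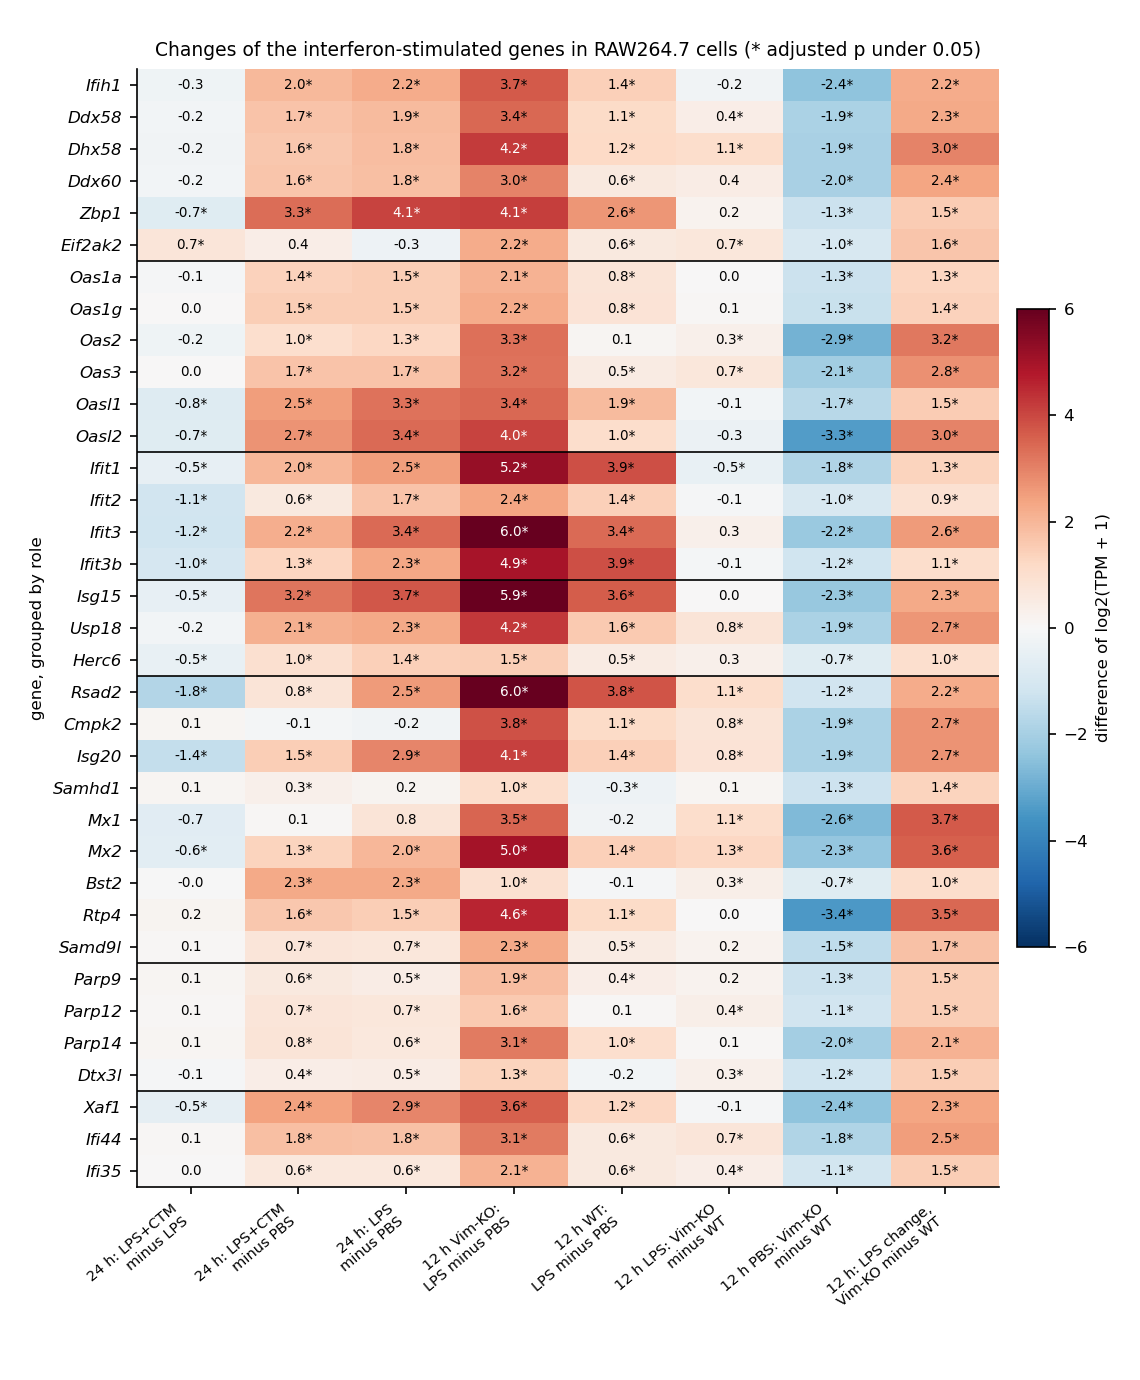
Change of each gene in the 8 cell line comparisons, as a difference of log2(TPM + 1) printed in each cell and coloured from blue (-6) to red (6), with genes grouped by role in rows and an asterisk for an adjusted p under 0.05. The column for Vim-KO minus WT with PBS is blue throughout, the column for the LPS change in Vim-KO minus WT is red throughout, and the column for LPS plus CTM minus LPS is blue mainly in the Ifit rows, Rsad2 and Isg20.

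The LPS change differed between the lines for all 35 genes, with the larger rise in Vim-KO cells, against 13.7% of all genes tested that differed in this direction. The difference in change had a median of 2.23 (0.09 over all genes) and ran from 0.91 (Ifit2) to 3.69 (Mx1). Arithmetically it is the Vim-KO minus WT difference with LPS less that with PBS, and the median of the first was 0.30 and of the second -1.81. Mx1 had a difference in change of 3.69 ± 0.204 SE (adjusted p = 3.26e-05): in Vim-KO cells it stood at 13.0 and 13.1 TPM with LPS, against 0.331 and 0.167 TPM with PBS, and in WT cells at 6.37 and 5.08 TPM with LPS, against 6.25 and 7.16 TPM with PBS. Mx2 (3.58 ± 0.149 SE, adjusted p = 1.40e-05), Rtp4 (3.45 ± 0.109 SE, adjusted p = 3.46e-06), Oas2 (3.17 ± 0.145 SE, adjusted p = 1.90e-05) and Oasl2 (3.0 ± 0.237 SE, adjusted p = 1.41e-04) followed. Oas2 showed the pattern plainly. It held 85.4 and 87.1 TPM with LPS, against 8.86 and 7.16 TPM with PBS, in Vim-KO cells, and 73.4 and 65.4 TPM with LPS, against 62.6 and 65.2 TPM with PBS, in WT cells, where the rise did not pass. Among the upstream genes the difference in change was 1.57 ± 0.121 SE for Irf9, 1.40 ± 0.132 SE for Stat2 and 1.52 ± 0.0951 SE for Irf7, each past the threshold, and it did not pass for Ifnb1 (0.84 ± 0.399 SE, adjusted p = 0.178).

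Genes of the other roles were likewise lowest in Vim-KO PBS libraries. Ddx58, the RNA sensor RIG-I, stood in Vim-KO cells at 128 and 121 TPM with LPS, against 11.1 and 10.1 TPM with PBS, and in WT cells at 90.7 and 97.1 TPM with LPS, against 42.3 and 41.2 TPM with PBS. For Ifih1 the libraries held 70.0 and 63.1 TPM with LPS, against 4.13 and 4.46 TPM with PBS, in Vim-KO cells, and 74.3 and 78.4 TPM with LPS, against 29.3 and 25.8 TPM with PBS, in WT cells. Ddx58 with LPS was higher in Vim-KO than in WT cells (0.40, adjusted p = 0.00381), and Ifih1 did not pass (-0.20, adjusted p = 0.126). Usp18 held 322 and 322 TPM with LPS, against 16.1 and 15.9 TPM with PBS, in Vim-KO cells, and 189 and 187 TPM with LPS, against 60.5 and 63.7 TPM with PBS, in WT cells. Parp14 held 53.6 and 48.2 TPM with LPS, against 5.37 and 4.73 TPM with PBS, in Vim-KO cells, and 46.2 and 52.1 TPM with LPS, against 23.4 and 24.2 TPM with PBS, in WT cells. In both genes the Vim-KO PBS libraries were the lowest of the experiment and the Vim-KO LPS libraries were above both WT groups for Usp18. Samd9l, a brake on virus replication, held 49.1 and 46.8 TPM with LPS, against 10.3 and 8.39 TPM with PBS, in Vim-KO cells, and 41.4 and 39.9 TPM with LPS, against 28.4 and 28.1 TPM with PBS, in WT cells. Ifi35 held 94.2 and 95.8 TPM with LPS, against 22.5 and 21.3 TPM with PBS, in Vim-KO cells, and 75.4 and 70.3 TPM with LPS, against 45.6 and 49.3 TPM with PBS, in WT cells. Both Vim-KO LPS libraries lay above the other 6 libraries for 22 of the 35 genes, an order found in 9.18% of genes tested, and both WT LPS libraries did so for 4 of the 35 (Ifit1, Ifit3b, Oasl2 and Ifih1), an order found in 11.0% of genes tested.

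**Figure D3:**
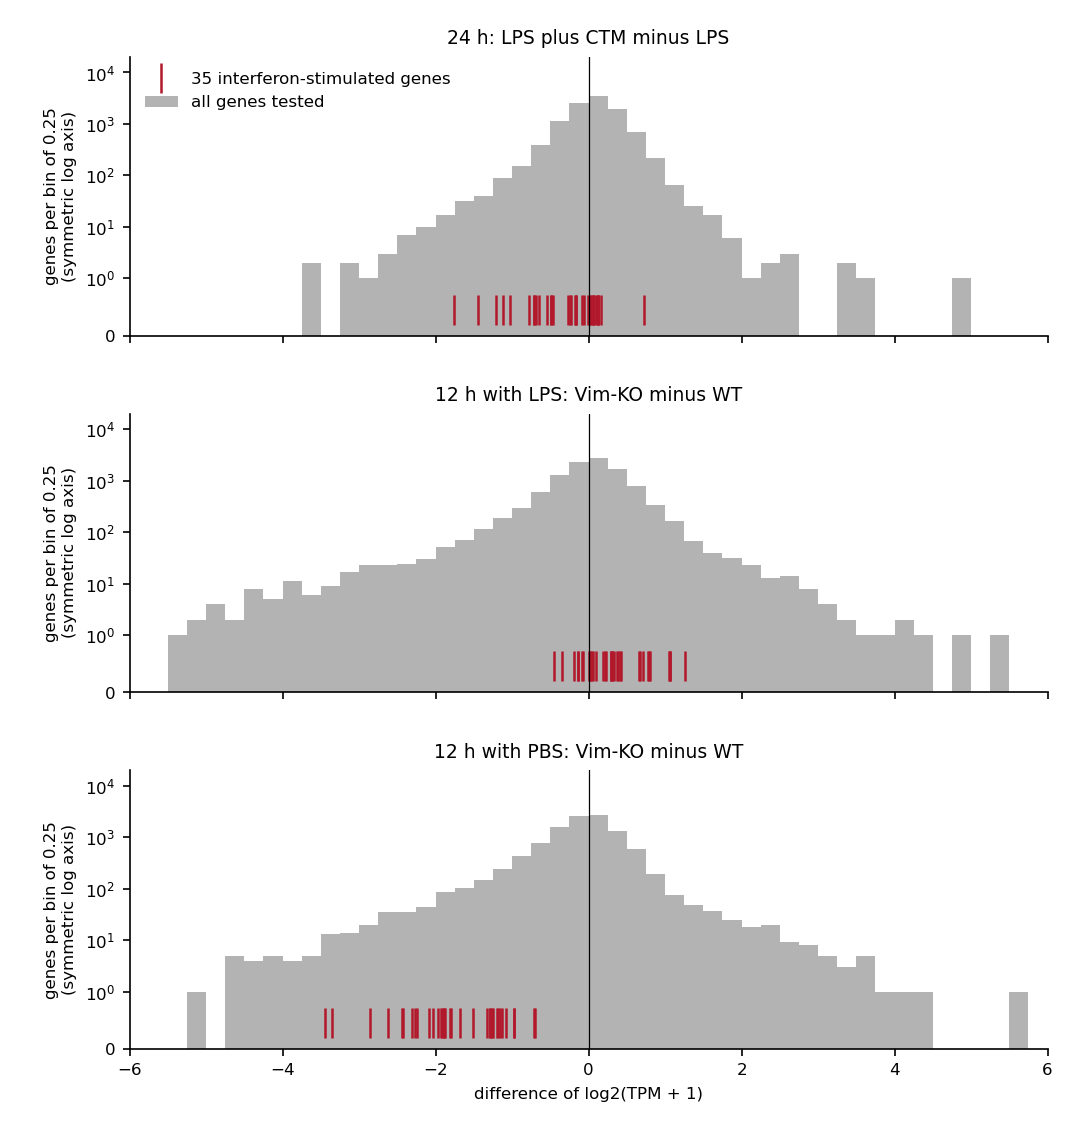
Distribution of the difference of log2(TPM + 1) over all genes tested (grey bars, genes per bin of 0.25 on a symmetric log axis) and the 35 genes (red ticks) for LPS plus CTM minus LPS at 24 h, Vim-KO minus WT with LPS, and Vim-KO minus WT with PBS, on a horizontal axis cut at -6 and 6 that leaves out 0, 9 and 4 genes. All 35 ticks lie below 0 in the lowest panel, between -3.45 and -0.70, and on both sides of 0 in the other panels.

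At 24 h LPS raised 31 of the 35 genes in WT RAW264.7 cells, against 20.9% of all genes tested, and lowered none, against 45.1%, with a median change of 1.76 (-0.23 over all genes). Cmpk2, Eif2ak2, Mx1 and Samhd1 did not pass. Zbp1 rose most, to 97.1 and 97.4 TPM with LPS, against 5.83 and 4.12 TPM with PBS (4.05 ± 0.136 SE, adjusted p = 7.35e-07). Isg15 stood at 113 and 114 TPM with LPS, against 8.21 and 7.31 TPM with PBS (3.71 ± 0.0918 SE, adjusted p = 1.77e-07). Both OAS-like genes and Ifit3 followed: Oasl2 held 28.7 and 27.0 TPM with LPS, against 1.11 and 2.46 TPM with PBS (3.42 ± 0.218 SE, adjusted p = 1.35e-05), and Oasl1 held 225 and 214 TPM against 22.9 and 20.8 TPM (3.27 ± 0.0731 SE, adjusted p = 1.11e-07). Ifit3 held 26.6 and 25.8 TPM with LPS, against 1.04 and 2.21 TPM with PBS (3.41 ± 0.224 SE, adjusted p = 1.57e-05). These 5 were taken from called genes without overlap between the groups, so their separation follows from that choice. Bst2 rose to 732 and 743 TPM with LPS, against 153 and 148 TPM with PBS (2.29 ± 0.0445 SE). The 4 ADP-ribosylation genes all rose, by 0.45 to 0.68, the lowest median (0.55) among the roles.

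Cmpk2, a nucleotide kinase of mitochondria that lies beside Rsad2, had 5.23 and 4.81 TPM with LPS, against 6.23 and 5.84 TPM with PBS at 24 h (-0.23, adjusted p = 0.19), while its neighbour Rsad2 had 15.3 and 14.6 TPM against 1.19 and 2.42 TPM (2.54 ± 0.218 SE). In the 12 h experiment Cmpk2 had risen in Vim-KO cells (3.84 ± 0.124 SE) and in WT cells (1.13 ± 0.124 SE). The experiments were sequenced from RNA of different extraction dates and are not compared by a test. Among upstream genes at 24 h Irf7 rose to 660.3 and 649 TPM with LPS, against 37.2 and 35.8 TPM with PBS (4.13 ± 0.0483 SE), Stat2, Irf9 and Jak1 rose by 0.41, 0.55 and 0.32, Irf1 and Irf3 fell, and Ifnb1 stood at 0.145 and 0.269 TPM with LPS, against 0 and 0.264 TPM with PBS.

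The resting levels of the WT line differed between experiments. In PBS libraries of the 24 h experiment the 35 genes stood at 10.7% (Ifit3b) to 74.5% (Parp9) of the level in WT PBS libraries of the 12 h experiment, with a median of 44.1%, and Irf7 was at 37.2 and 35.8 TPM in the 24 h experiment and 693 and 674 TPM in the 12 h experiment. Over the 3 sets of resting libraries the genes summed to 770 and 745 TPM in Vim-KO cells at 12 h, 795 and 803 TPM in WT cells at 24 h, and 1921 and 1941 TPM in WT cells at 12 h. Time, extraction date and culture cannot be told apart here.

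**Figure D4:**
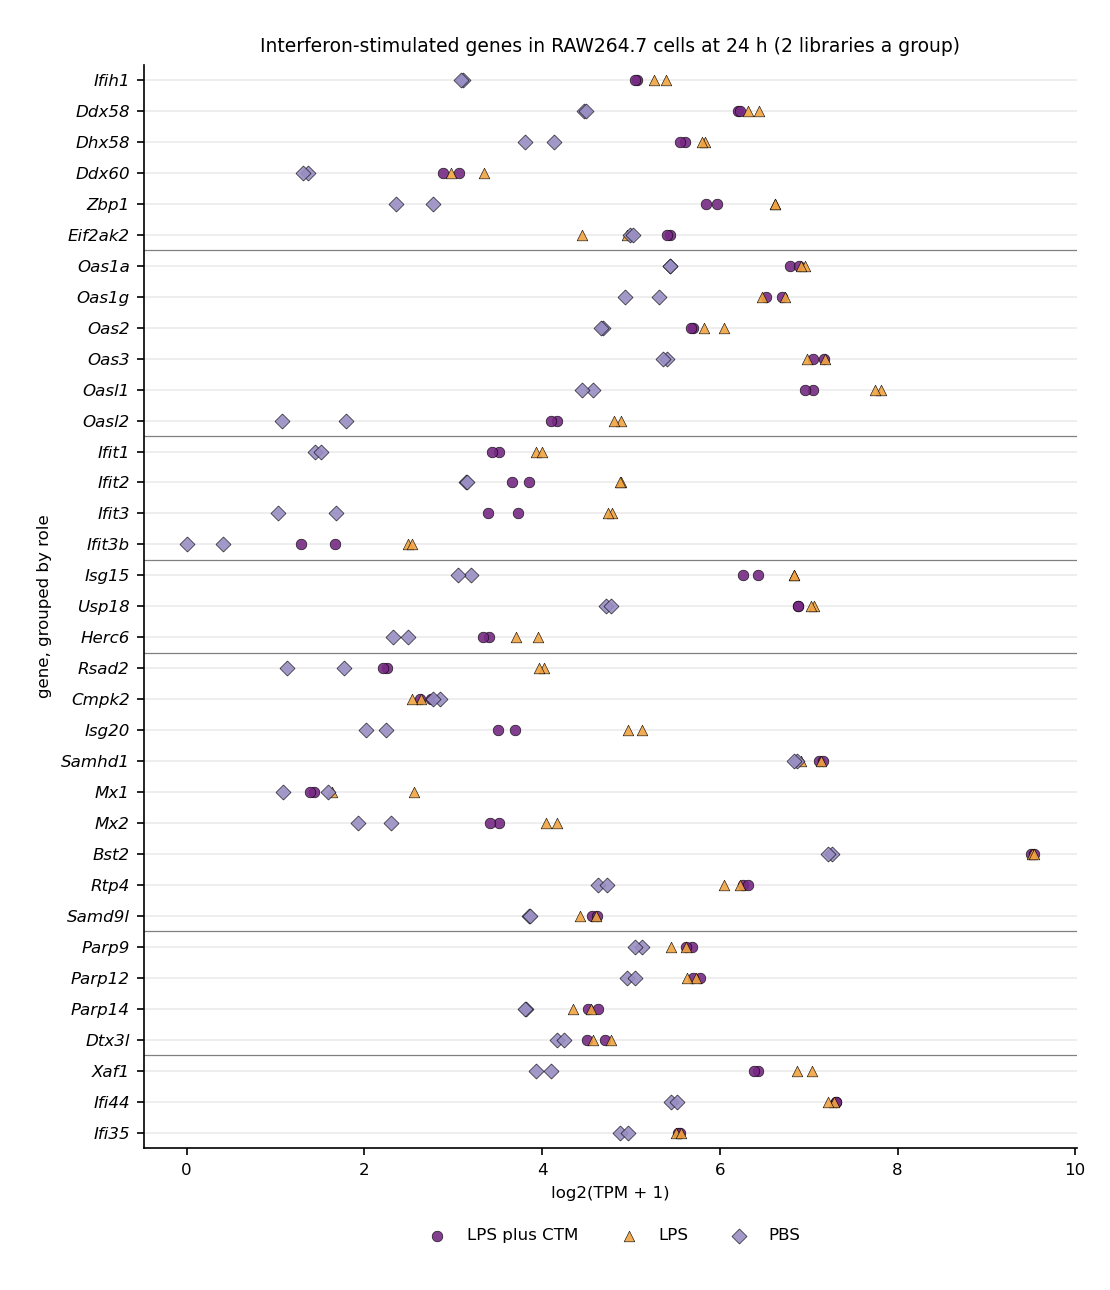
Level of each of the 35 genes in the 6 libraries of the 24 h experiment, as log2(TPM + 1) on the horizontal axis, with genes grouped by role on the vertical axis and 1 point per library (circles LPS plus CTM, triangles LPS, diamonds PBS). The circles lie left of the triangles for Rsad2, Isg20 and the 4 Ifit genes and beside them for Oas1a, Oas1g and Bst2.

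CTM given with LPS lowered 13 of the 35 genes relative to LPS alone, against 9.45% of all genes tested, raised 1, against 16.1%, and left 21 that did not pass, with a median change of -0.18 (0.07 over all genes). The 13 were all 4 Ifit genes, Isg15 and Herc6, Oasl1 and Oasl2, Rsad2, Isg20, Mx2, Xaf1 and Zbp1, and each of them was among the 31 that LPS had raised, in a comparison that shares the LPS libraries. Rsad2 stood at 3.77 and 3.62 TPM with LPS plus CTM, against 15.3 and 14.6 TPM with LPS (-1.76 ± 0.218 SE, adjusted p = 0.00214), which is 24.7% of the level with LPS alone. Isg20 stood at 12.0 and 10.4 TPM with LPS plus CTM, against 30.2 and 33.9 TPM with LPS (-1.44 ± 0.137 SE, adjusted p = 8.53e-04). Ifit2 held 13.5 and 11.7 TPM with LPS plus CTM, against 28.7 and 28.5 TPM with LPS (-1.13 ± 0.108 SE, adjusted p = 8.76e-04). All 3 were chosen among genes whose CTM and LPS libraries do not overlap, so that separation was fixed beforehand. Ifit3 held 9.50 and 12.2 TPM with LPS plus CTM, against 26.6 and 25.8 TPM with LPS (-1.21 ± 0.224 SE, adjusted p = 0.00912), a call that did not hold without the CTM library whose value is given first (adjusted p = 0.055). Ifit3b held 2.19 and 1.44 TPM against 4.60 and 4.79 TPM (-1.03 ± 0.241 SE, adjusted p = 0.0205). Without a CTM library the number of calls was 6 or 8, without an LPS library at most 10, and Ifit3b lost its call in 3 of these 4 fits. Of the 13 lowered genes Rsad2, Isg20, Ifit2, Oasl1 and Xaf1 kept their calls in all 4, whereas Ifit1, Mx2, Oasl2 and Herc6 kept theirs in none (highest adjusted p of each from 0.118 to 0.188).

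The other 8 lowered genes moved by less than 1. Isg15 stood at 75.4 and 85.5 TPM with LPS plus CTM, against 113 and 114 TPM with LPS (-0.49 ± 0.0918 SE, adjusted p = 0.00932), and Herc6 at 9.56 and 9.07 TPM against 14.4 and 12.1 TPM (-0.46, adjusted p = 0.0479). Without the same CTM library the call of Isg15 did not hold (adjusted p = 0.0621). For the ISG15 protease Usp18 the CTM libraries held 117 and 117 TPM, against 132 and 129.7 TPM in LPS libraries, which did not pass (-0.16, adjusted p = 0.0974). Of the OAS-like genes Oasl1 held 131 and 123 TPM with LPS plus CTM, against 225 and 214 TPM with LPS (-0.78, adjusted p = 7.97e-04), and Oasl2 17.0 and 16.1 TPM against 28.7 and 27.0 TPM (-0.72, adjusted p = 0.0498). Herc6 and Oasl2 lay just under the threshold. Zbp1 held 56.5 and 61.4 TPM with LPS plus CTM, against 97.1 and 97.4 TPM with LPS (-0.71), a call lost in 2 of the 4 fits (adjusted p at most 0.0607), and Xaf1 85.5 and 82.4 TPM against 131 and 116 TPM (-0.55). Ifit1 (-0.49, adjusted p = 0.0285) and Mx2 (-0.64, adjusted p = 0.0233) completed the 8. In none of these called genes did a CTM library overlap an LPS library. The genes were taken by their calls, so this is no further support, and the share of all genes without overlap was not computed.

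Eif2ak2 was the gene that rose, at 42.4 and 41.3 TPM with LPS plus CTM, against 30.0 and 20.8 TPM with LPS (0.72 ± 0.154 SE, adjusted p = 0.015). Its LPS libraries lay far apart, its PBS level was 30.8 and 31.6 TPM, and the call did not hold without either CTM library (adjusted p = 0.0719 and 0.0685). Other roles moved little. Among the OAS genes proper Oas1a held 110.1 and 118 TPM with LPS plus CTM, against 123 and 119.8 TPM with LPS (-0.09), Oas3 held 132 and 144 TPM against 145 and 125 TPM (0.03), and neither passed. Bst2 held 725 and 742 TPM against 732 and 743 TPM (-0.01), and none of the 4 ADP-ribosylation genes passed (-0.07 to 0.13). For genes with an ISRE core the median change was -0.18 (13 genes), and for the others with a known window -0.07 (13 genes). For LPS against PBS these medians were 2.23 and 1.43 at 24 h. At 12 h they were 1.15 and 0.61 in WT cells and 3.44 and 2.36 in Vim-KO cells. For Vim-KO against WT with LPS they were 0.31 and 0.29, and no split was tested. Scaling by median ratios gave 17 lower and 1 higher, and over all genes it moved the share of calls that are higher to 44.9%, against 63.1% as listed.

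Relative to PBS, LPS plus CTM still raised 32 of the 35 genes, against 17.4% of all genes tested, with a median change of 1.47 (-0.16 over all genes), and Cmpk2, Eif2ak2 and Mx1 did not pass. Zbp1 held 56.5 and 61.4 TPM with LPS plus CTM, against 5.83 and 4.12 TPM with PBS (3.34 ± 0.136 SE, adjusted p = 3.35e-06), and Isg15 held 75.4 and 85.5 TPM against 8.21 and 7.31 TPM (3.22 ± 0.0918 SE, adjusted p = 6.51e-07). Oasl2 (2.70 ± 0.218 SE), Oasl1 (2.49 ± 0.0731 SE) and Xaf1 (2.39 ± 0.0902 SE) followed. For 23 of the 35 the mean with LPS plus CTM lay between the means with PBS and LPS by any amount. The share over all genes was not computed. Among the 23 were genes that did not pass against LPS, such as Bst2, at 733 TPM with LPS plus CTM and 738 TPM with LPS. Both comparisons use the same LPS plus CTM libraries, and the comparison of LPS with PBS shares the PBS libraries. Among upstream genes relative to LPS alone Irf7 was 553 and 551 TPM against 660.3 and 649 TPM (-0.25 ± 0.0483 SE, adjusted p = 0.0111), and Ticam1 (TRIF), Ikbke and Irf8 fell by 0.55, 0.51 and 0.49. Irf1 (0.93 ± 0.153 SE), Irf3 (0.61 ± 0.0999 SE) and Tlr4 (0.65 ± 0.115 SE) rose.

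In WT liver these transcripts were far higher with LPS than with PBS, with 1 library per group and therefore no test. All 33 genes with a row differed by at least 1 on the log2(TPM + 1) scale, as did 20.6% of all 5298 genes listed in that direction, but only genes at least 2-fold apart in this pair are listed, so the count follows from the listing. The difference ran from 1.05 (Bst2) to 6.98 (Isg15). Isg15 stood at 951 TPM with LPS, against 6.54 TPM with PBS, and Rsad2 at 537 TPM against 3.59 TPM (6.87). Ifit2 held 202 TPM against 1.11 TPM (6.59), Usp18, which strips ISG15 from proteins and restrains the receptor, 336 TPM against 3.37 TPM (6.27), and Ifit1 442 TPM against 5.03 TPM (6.20). The OAS genes Oas1g, Oas2 and Oas3 did not exceed 9.16 TPM in any liver library. Ifng was listed at 6.01 TPM with LPS and at 0 with PBS, Irf7 stood at 353 TPM against 26.3 TPM, and all 11 GTPases of the interferon gamma list differed by at least 1. Cell type markers moved in the same pair, as sums over those with a row: 67.0 TPM with LPS, against 1.37 TPM with PBS, for 4 of 5 neutrophil markers, 13.9 against 70.02 TPM for 3 of 4 endothelial, 26.8 against 48.01 TPM for 4 of 5 Kupffer cell, and 16.5 against 43.4 TPM for 5 of 8 macrophage markers. Within these sums Marco stood at 13.55 TPM with LPS, against 2.5 TPM with PBS, Itgam at 1.57 against 0.26 TPM, and Ptprc at 1.52 against 0.65 TPM. The other Kupffer cell and macrophage markers with a row were lower with LPS. The hepatocyte gene Cyp2e1, the only 1 of 6 hepatocyte markers with a row, stood at 2632 TPM with LPS, against 5513 TPM with PBS. By the listing every marker with a row is at least 2-fold apart in this pair, so that it moved was fixed beforehand. The part of the markers in the differences was not tested.

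The same 33 genes were higher with LPS in TG2-KO liver. In that pair 33 of 33 genes differed by at least 1, against 14.8% of genes listed, with a median of 3.85. The listing was decided by the WT pair and not by this pair, and most genes listed were lower with LPS in WT liver. Rsad2 held 732 TPM with LPS, against 1.26 TPM with PBS (8.34), Ifit1 983 TPM against 3.02 TPM (7.94) and Isg15 757 TPM against 5.84 TPM (6.79). Ifit3 (6.60) and Cmpk2 (6.52) were next. In TG2-KO liver the neutrophil markers summed to 130.3 TPM with LPS, against 27.4 TPM with PBS. The endothelial markers summed to 14.5 against 47.9 TPM and the Kupffer cell markers to 26.01 against 36.7 TPM. Marco alone of the Kupffer cell markers with a row was higher with LPS (11.26 against 4.04 TPM). In both conditions the neutrophil sum was higher in TG2-KO than in WT liver (67.0 TPM with LPS and 1.37 TPM with PBS in WT), and its part in these differences was not tested. Set against the WT LPS library, the TG2-KO LPS library was at least 1 higher for 3 genes, against 4.27% of genes listed, and at least 1 lower for none, against 2.04%. Oasl1 held 419 TPM in TG2-KO liver, against 182 TPM in WT liver (1.2), Ifit1 983 TPM against 442 TPM (1.15), and Cmpk2 174 TPM against 80.0 TPM (1.11). By any amount 22 of 33 were lower, against 35.4% of genes listed, with Oas2 (-0.97) and Samhd1 (-0.93) the farthest. A high WT LPS library is also why these genes are listed, so lower values beside it were favoured, unlike for most genes listed. With PBS 23 of 33 were lower in TG2-KO than in WT liver, as were 69.1% of all genes listed. TG2-KO and WT RNA was extracted on different dates, so genotype and date cannot be told apart.

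CTM moved few of the genes in LPS-treated liver. Only Ifi44 differed by at least 1, at 15.1 TPM with LPS plus CTM, against 32.7 TPM with LPS (-1.06), where 0.887% of genes listed were as far below and 0.698% as far above. By any amount 24 of 33 were lower, against 45.6% of genes listed, and the median difference was -0.19. The 33 genes are listed because the WT LPS library was high beside WT PBS, and the same LPS library serves here. Most genes listed were lower in that pair (median -0.94), so the share over them is not a like comparison. Oas1a (-0.60), Oas2 (-0.59) and Oasl2 (-0.55) were lower. Rsad2, the gene most lowered by CTM in RAW264.7 cells, held 796 TPM with LPS plus CTM in liver, against 537 TPM with LPS (0.57), the highest difference of the 33. The neutrophil markers summed to 91.3 TPM with LPS plus CTM, against 67.0 TPM with LPS, and the Kupffer cell markers to 41.3 against 26.8 TPM. Most of the latter difference was Marco, at 26.12 against 13.55 TPM. Clec4f held 7.53 against 6.48 TPM, Vsig4 2.18 against 2.07 TPM and Cd5l 5.48 against 4.65 TPM. The part of these markers was not tested. The liver and cell line differences rest on 1 and 2 libraries a group and other doses, and were not compared by a test.

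Liver depleted of macrophages held less of most of these transcripts under LPS than the undepleted liver. Of 33 genes 9 were at least 1 lower, against 6.25% of genes listed, and none was at least 1 higher, against 2.59%. By any amount 28 were lower, against 54.5% of genes listed. Unlike these 33, most genes listed were lower with LPS than with PBS in WT liver (median -0.94). The shares over them are therefore not a like comparison. The genes summed to 2196 TPM in depleted liver, against 3251 TPM in undepleted liver. Samhd1 stood apart at 27.2 TPM in depleted liver, against 123 TPM in undepleted liver (-2.14). Oasl2 held 63.1 TPM against 166 TPM (-1.38), Oas3 1.91 TPM against 5.68 TPM (-1.2), Ifit2 57 TPM against 127 TPM (-1.15) and Ifih1 23.2 TPM against 52.2 TPM (-1.14). All 6 OAS genes, the 6 sensors and the 3 genes of the ISG15 system were lower in depleted liver, as were Irf7 (206 TPM against 408 TPM) and all 11 GTPases. The 5 that were higher were Cmpk2 (0.95), Ifit1 (0.95), Rsad2 (0.49), Dtx3l (0.30) and Parp14 (0.12).

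The Kupffer cell markers Clec4f (0.210 TPM against 12.3 TPM), Vsig4 (0.12 TPM against 6.42 TPM), Marco (7.18 TPM against 26.6 TPM) and Cd5l (2.65 TPM against 17.6 TPM) were lower in depleted than in undepleted liver, while the neutrophil markers S100a8 (85.1 TPM against 45.1 TPM) and S100a9 (95 TPM against 45.0 TPM) were higher, Retnlg was 7.85 TPM against 7.14 TPM, and Cxcr2 was lower (0.370 TPM against 1.34 TPM). Summed over those with a row, the Kupffer cell markers were at 10.2 TPM in depleted liver, against 62.9 TPM in undepleted liver, the macrophage markers at 18.5 against 54.8 TPM, the neutrophil markers at 188.4 against 98.6 TPM, and the endothelial markers at 35.8 against 16.8 TPM, with Clec4g at 24.2 TPM against 8.63 TPM. Their part in these differences was not tested. The undepleted LPS liver was below the other WT LPS liver for 29 of 33 genes, as were 26.5% of genes listed, with RNA extracted on another date. High values in that other liver are why these genes are listed, so the count and the share are not a like comparison. Ifit1, for example, held 96.0 TPM in the undepleted liver and 442 TPM in the other WT LPS liver.

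**Figure D5:**
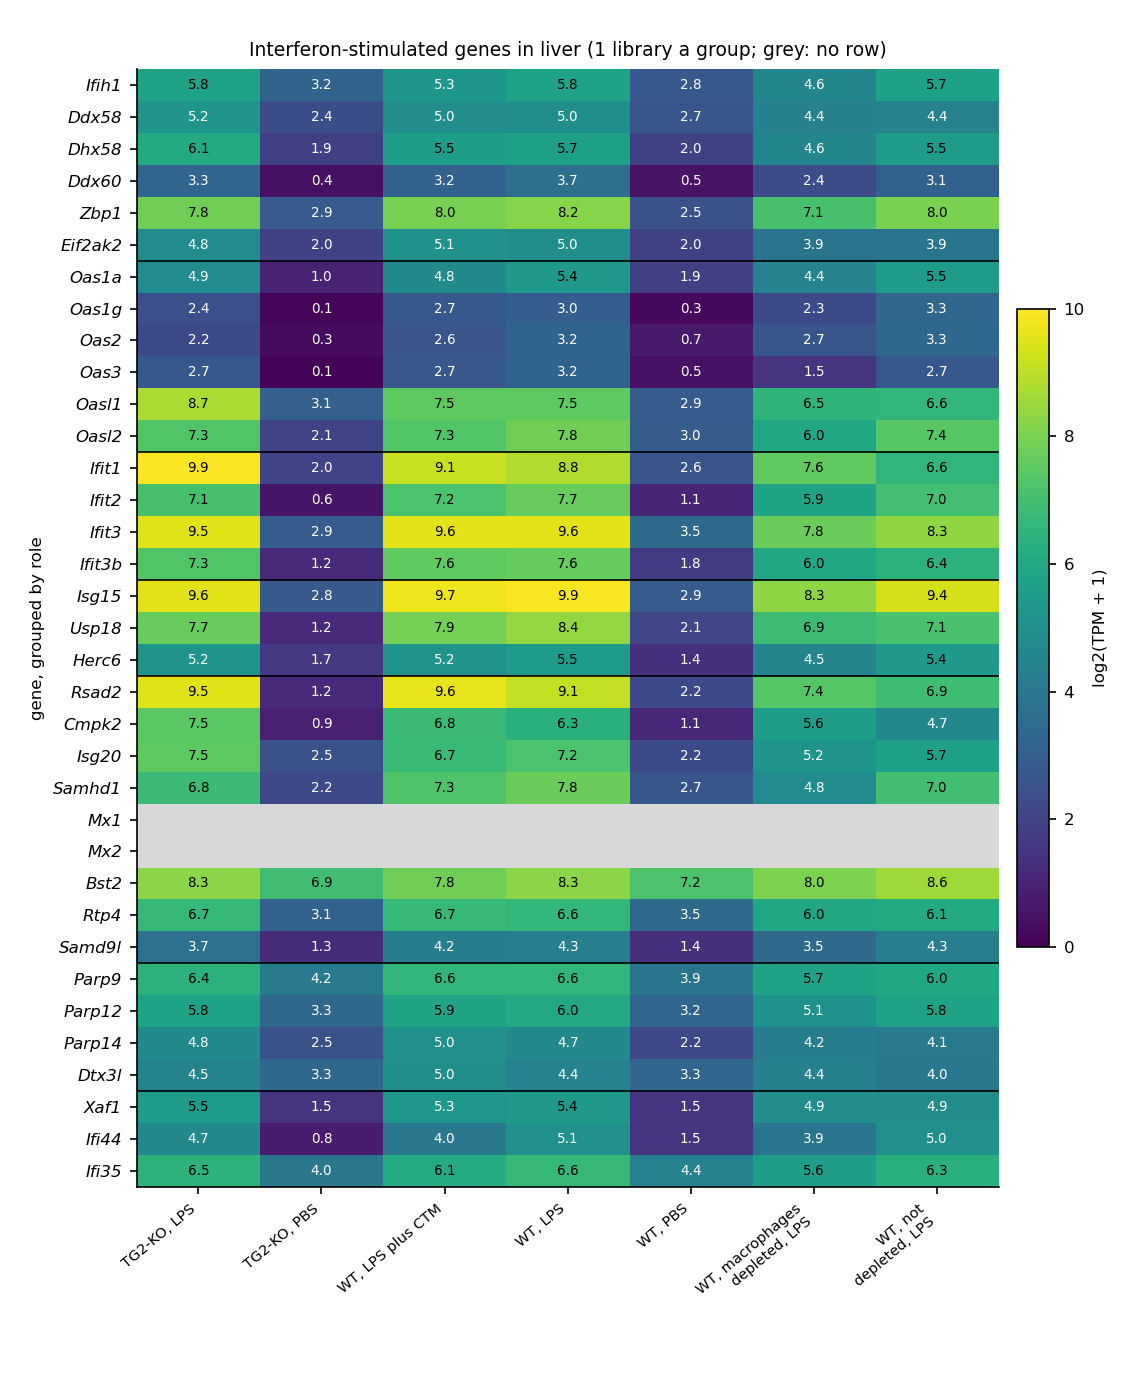
Level of each gene in the 7 liver libraries (1 per group), as log2(TPM + 1) printed in each cell and coloured from 0 (dark) to 10 (yellow), with genes grouped by role in rows and grey rows for Mx1 and Mx2, which have no row. PBS columns are dark and LPS columns light for nearly every gene, and the column of depleted liver is darker than that of undepleted liver for Samhd1, Oasl2 and Oas3.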

How the data were processed

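Polyadenylated RNA of RAW264.7 cells and mouse liver was sequenced with a stranded kit, per the labels' protocols. The values the authors deposited are TPM per gene, made with Salmon on mm10 (GRCm38), per the submitters' processing notes. TPM keep no read counts, so the depth is unknown and no interval for counting error is given. They sum to 993386.5 to 999190.5 in cell line libraries and to 153179.8 to 336332.5 in liver libraries, whose table lists 5298 genes. The smallest ratio there between WT LPS and WT PBS was 2.0 in either direction.

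The 24 h experiment (6 libraries) and the 12 h experiment (8 libraries) were fitted separately on log2(TPM + 1) with limma 3.58.1 (trended eBayes, two-sided) in R 4.3.3, dropping genes whose mean was under 1 TPM. Adjustment was by Benjamini-Hochberg across every gene fitted, and calls were made under 0.05. The fit was first tested on simulated data. In the 24 h table the LPS and LPS plus CTM columns carry other replicate numbers than the labels, so they were assigned to groups and not to single samples. Liver groups have 1 library, and differences of log2(TPM + 1) are given with no test. Tables, motifs and figures were made in Python 3.11.15 with numpy 2.4.6, pandas 2.3.3 and matplotlib 3.10.9.

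In each cell line comparison the 5 genes with the largest change among those past the threshold and without overlap between groups are given in full, with any that went against the prevailing direction; in liver the 5 with the largest difference and at least 5 TPM in the higher library are given. Other genes named were chosen after their values were seen. The 35 genes and the pathway and marker lists were chosen with earlier results of these data known. Alternatives were another pseudocount, other filters, median-ratio scaling, no trend, fewer libraries, a minimum change, a replicate block and leaving out each library. A group with macrophage depletion and PBS was not analysed here.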

Additional observations from a re-analysis of the deposited data

Results flagged for a closer look

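The difference between the lines in the LPS change at 12 h was tested as an interaction term in limma, and it passed for 35 of 35 genes. The 5 largest differences, in log2(TPM + 1), were 3.69 for Mx1, 3.58 for Mx2, 3.45 for Rtp4, 3.17 for Oas2 and 3.0 for Oasl2, each with the larger rise in Vim-KO cells. All 5 had Vim-KO PBS libraries far below WT PBS libraries. Both Vim-KO PBS libraries held less than 1 TPM of 7 genes, where the pseudocount understates a change. The summed macrophage markers also differed at rest, and their part in the interaction was not tested.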

How the results depend on the processing

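The call counts of LPS in Vim-KO cells, of Vim-KO against WT with PBS and of the difference in LPS change stayed at 35 when any library was left out. Over the fits that left out a library, LPS plus CTM against LPS ranged from 6 to 10 calls (14 with all libraries), LPS plus CTM against PBS from 29 to 30, LPS against PBS from 30 to 33 at 24 h and from 28 to 30 in WT cells at 12 h, and Vim-KO against WT with LPS from 15 to 16. LPS plus CTM against LPS gave 9 calls without a filter on low genes and 5 with a minimum log2 change of 1. That minimum gave 19 calls for LPS in WT cells at 12 h and 4 for Vim-KO against WT with LPS. With a liver difference of 0.5 counted in place of 1, the counts were 11 for LPS plus CTM against LPS, 22 for depleted against undepleted liver and 10 for TG2-KO against WT with LPS. Samhd1 turned to a change of 0.051 in WT cells under median-ratio scaling. The cause was not tested. For CTM 9 of the 14 called genes lost the call in at least 1 fit without a library. Under the other settings Rsad2, Isg20, Ifit2, Ifit3, Ifit3b and Eif2ak2 alone were followed singly, and Ifit3b had adjusted p = 0.19 with a pseudocount of 0.1. Isg20 lost its call for Vim-KO against WT with LPS with no filter (adjusted p = 0.0622). Libraries listed first in their groups did not deviate together (correlations from -0.22 to 0.098), so libraries were not treated as pairs. At 12 h these carry the same number, but at 24 h the PBS library carries another number than those of LPS and LPS plus CTM. With the replicate number as a block the counts were 13 for LPS plus CTM against LPS, 30 and 35 for LPS in WT and Vim-KO cells, 35 and 17 for Vim-KO against WT with PBS and with LPS, and 35 for the difference in change. Depth is unknown, and liver differences were not tested.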

Other observations

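The 7 feedback inhibitors of interferon signalling did not move as a block. In Vim-KO cells at rest 2 were higher and 4 lower than in WT cells, and the difference in LPS change was positive for Trim30a and negative for Socs3. The 3 genes of the interferon gamma receptor list gave 1 higher and 2 lower at rest in Vim-KO cells, and 1 higher and 0 lower with LPS plus CTM against LPS at 24 h.

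Cmpk2 and Rsad2 are neighbours on chromosome 12 that differed in their change at 24 h, where Rsad2 rose and Cmpk2 did not pass. No pattern was tested beyond the comparisons above.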
